A study of Mus musculus with 16 samples.

Results

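The messenger RNAs of 10 nuclear proteins were followed in chondrocytes cultured from mouse articular cartilage. Of these genes, 6 encode proteins of the nuclear lamina and the inner nuclear membrane (Lmnb1, Lmnb2, Lmna, Tmpo, Lbr and Emd) and 4 encode high mobility group (HMG) chromatin proteins (Hmgb1, Hmgb2, Hmga1 and Hmga2). They were taken by gene symbol from tables that list 55450 genes each, and each symbol matched 1 row. All 10 were at or above 1 FPKM (fragments counted per gene, scaled to transcript length and library size) in all 16 libraries, so all 10 passed the filter on low values and were among the 12976 genes tested.

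The lamina is a meshwork of intermediate filaments under the inner nuclear membrane, built of the B-type lamins B1 and B2 and of the A-type lamins A and C. Membrane proteins such as the lamin B receptor, the LAP2 proteins and emerin bind lamins and tie chromatin to the nuclear edge, while HMG proteins bind DNA inside the nucleus, bend it and loosen or compact chromatin. Loss of lamin B1 and of HMGB2, release of HMGB1 from the nucleus and HMGA proteins in condensed chromatin foci are known features of senescent cells, and HMGB2 is known in cartilage as a protein of the surface zone.

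The study looked at cellular senescence in primary chondrocytes, with interleukin-1 beta (IL-1β), an inflammatory cytokine, as a model of acute stress beside it. There were 4 groups of 4 libraries, all from cells kept in medium with 10% fetal bovine serum at 3% oxygen. The bleomycin group received hyaluronidase type I-S at 4 U/mL for 4 h without serum, 2 days after seeding, then 50 µg/mL of the DNA-breaking drug bleomycin for 24 h, and then fresh medium for 5 days. The doxorubicin group received 50 nM of doxorubicin, a topoisomerase II poison, for 5 days with fresh medium every 48 h. The IL-1β group received 1 ng/mL for 24 h and the vehicle group the same volume of phosphate-buffered saline over 24 h. It is not stated in the labels whether the vehicle cells received hyaluronidase or how long they had been in culture, so drug, pretreatment and culture time cannot be told apart. Nor do they say whether the libraries of a group came from separate cultures or animals, and p-values then measure only the spread between these libraries.

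FPKM values summed to 405159 to 423830 per library in the vehicle, bleomycin and doxorubicin groups and to 521294 to 559190 in the IL-1β group, where the acute-phase gene Saa3 alone held 12.0% to 14.4% of the sum. Between 12014 and 12481 genes reached 1 FPKM in a library, and the depth estimated from the steps between the lowest values was 15.7 to 21.8 M fragments (M, mega). All 15 chondrocyte markers examined were at or above 1 FPKM in at least 1 library of every group. Cdkn1a, the p53 target that encodes the cell cycle inhibitor p21, averaged 122 ± 4.55 FPKM in vehicle, 302 ± 11.2 with bleomycin, 327 ± 17.9 with doxorubicin and 167 ± 4.92 with IL-1β (SD, n = 4). In bulk RNA, fewer cells of a type and less RNA per cell cannot be told apart.

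After bleomycin, 7 of the 10 genes were lower than in vehicle and 0 were higher, at a Benjamini-Hochberg adjusted p under 0.05 in a limma fit of log2(FPKM + 1). Over all genes tested, 19% were called lower and 27.9% higher in that comparison. The 7 were Lmnb1, Tmpo, Hmgb2, Lbr, Lmnb2, Hmgb1 and Emd, in order of their log2 differences, and the median difference of the 10 was -0.58 on the log2 scale against 0.06 over all genes. With doxorubicin, the genes called lower were again 7 and those higher 0, where 22.8% of all genes tested were called lower and 25.4% higher, and the median was -0.92 against 0.02. Of the 7, 2 were at least 2-fold lower on the log2(FPKM + 1) scale after bleomycin and 5 with doxorubicin. The least lowered of these, Tmpo after bleomycin and Lmnb2 with doxorubicin, held the 85th and 138th lowest differences of the 12976 genes tested. The genes past this cut over all those tested were not counted, but ranks bound them. Uhrf1, at -0.997 after bleomycin, was the 116th lowest, so fewer than 116 genes passed it there. Pola1, at -0.994 with doxorubicin, was the 253rd lowest, so fewer than 253 did there. With IL-1β, 3 were lower (Lmnb1, Tmpo and Lmnb2) and 1 was higher (Hmgb2), where 18.4% of all genes were called lower and 24.5% higher, and the median was -0.06 against 0.03. These 3 comparisons share the vehicle libraries. The balance of calls over all genes moved with scaling between libraries: lower calls made up 40.5% of all calls after bleomycin without scaling, 52.3% after median-of-ratios scaling and 51.7% after quantile normalization, and for IL-1β these shares were 42.9%, 51.6% and 56%.

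**Figure D1:**
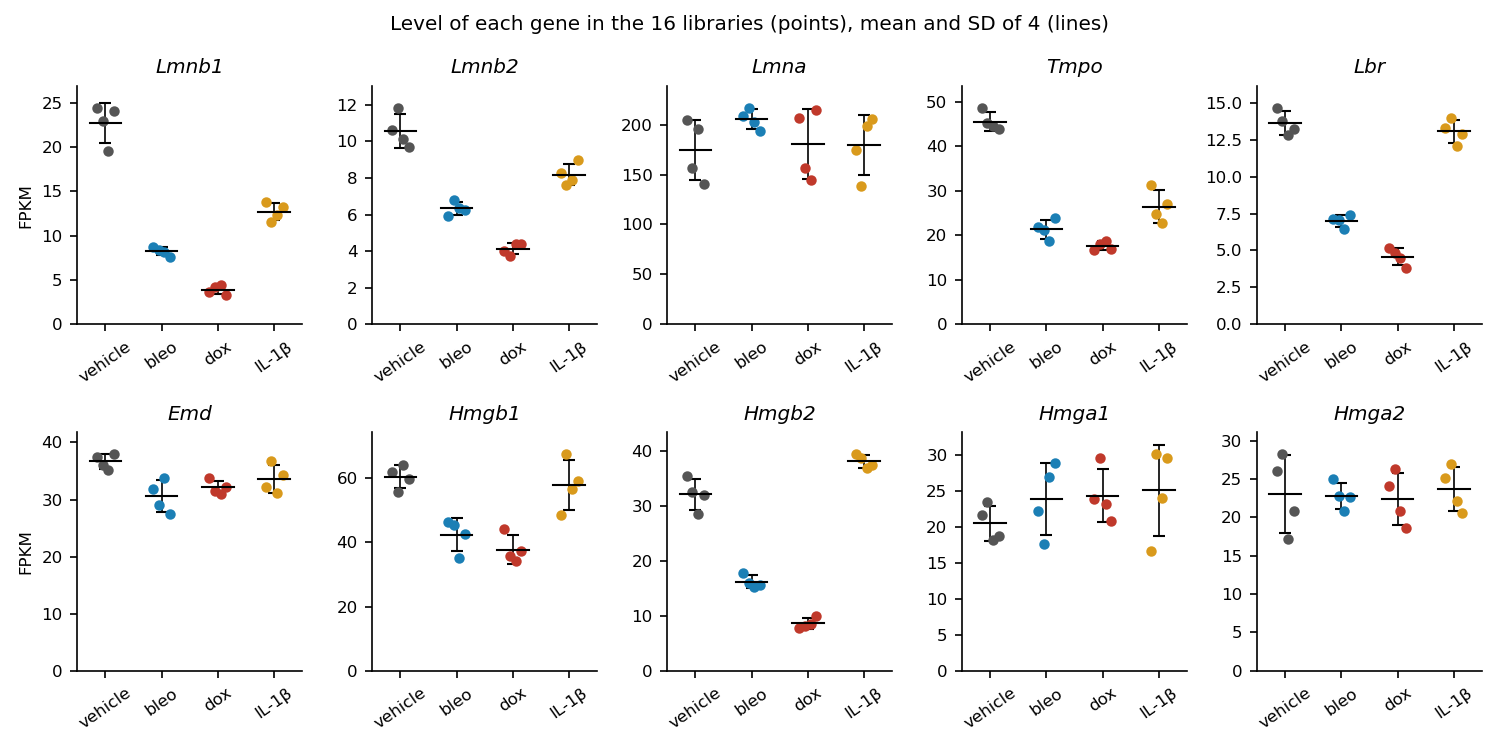
FPKM (vertical axes, from 0) of each of the 10 genes in the 4 libraries of each group (points), with the mean and SD of 4 as lines; bleo is bleomycin and dox doxorubicin. Lmnb1, Lmnb2, Lbr and Hmgb2 step down from vehicle to bleomycin to doxorubicin without overlap, and Lmna, Hmga1 and Hmga2 overlap in every pair of groups.

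Lmnb1 (ENSMUSG00000024590.8, GRCm38 chromosome 18, 56707813 to 56753424, plus strand) encodes lamin B1. Its level was 24.4, 22.9, 19.5 and 24.0 FPKM in the vehicle libraries, 8.75, 8.43, 8.21 and 7.65 after bleomycin, 3.64, 4.22, 4.43 and 3.36 with doxorubicin and 13.8, 11.6, 12.3 and 13.2 with IL-1β. No group overlapped another: vehicle was the highest, IL-1β next, then bleomycin, and doxorubicin the lowest. On the log2(FPKM + 1) scale Lmnb1 fell by 1.35 ± 0.09 after bleomycin (SE; limma adjusted p = 5.49e-09), where its difference was the 29th lowest of 12976 genes. With doxorubicin it fell by 2.27 ± 0.09 (limma adjusted p = 1.99e-11), the 2nd lowest difference. With IL-1β it fell by 0.79 ± 0.09 (limma adjusted p = 1.41e-06). In mean FPKM, vehicle exceeded bleomycin 2.75-fold, doxorubicin 5.81-fold and IL-1β 1.79-fold.

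Lmnb2 (ENSMUSG00000062075.13, chromosome 10, 80901203 to 80918245, minus strand) encodes lamin B2 and stood at 10.6, 11.9, 10.2 and 9.68 FPKM in vehicle. It was at 5.93, 6.82, 6.35 and 6.26 FPKM after bleomycin, 4.03, 3.74, 4.39 and 4.37 with doxorubicin and 8.30, 7.61, 7.87 and 8.96 with IL-1β. The groups kept the order seen for Lmnb1, again without overlap, over a smaller range of levels. Lmnb2 fell by 0.65 ± 0.07 on the log2 scale after bleomycin (limma adjusted p = 2.54e-06), by 1.17 ± 0.07 with doxorubicin (limma adjusted p = 2.88e-09) and by 0.33 ± 0.07 with IL-1β (limma adjusted p = 0.0016). In mean FPKM, vehicle exceeded these groups 1.67-fold, 2.56-fold and 1.29-fold.

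Lmna (ENSMUSG00000028063.15, chromosome 3, 88480147 to 88509956, minus strand) encodes lamins A and C from 1 gene by alternative splicing, and the tables sum over its transcripts. It was the most abundant of the 10 in every group. Its levels were 204, 157, 196 and 141 FPKM in vehicle, 209, 217, 203 and 193 after bleomycin, 207, 156, 144 and 215 with doxorubicin and 175, 139, 198 and 206 with IL-1β. All pairs of groups overlapped. The log2 difference from vehicle was 0.25 (95% interval -0.06 to 0.56) for bleomycin, 0.04 (-0.27 to 0.36) for doxorubicin and 0.04 (-0.28 to 0.35) for IL-1β, with limma adjusted p of 0.182, 0.833 and 0.856. The spread between libraries was 30.5 FPKM in vehicle and 35.5 with doxorubicin (SD, n = 4). Relative to the mean it was wider than for both B-type lamins in vehicle (17.45%), with doxorubicin (19.6%) and with IL-1β (16.8%). After bleomycin it was narrower, at 4.9% beside 5.6% for Lmnb1 and 5.8% for Lmnb2. The intervals leave room for a difference of up to 0.56 on the log2 scale, so equal levels were not shown.

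The makeup of lamin messenger RNA is given as ratios within each library, without a test. The ratio of Lmna to the sum of Lmnb1 and Lmnb2 in FPKM was 5.28 ± 1.13 in vehicle (range 4.18 to 6.60), 8.56 ± 1.20 with IL-1β (7.23 to 9.81), 14.1 ± 0.179 after bleomycin (13.9 to 14.2) and 22.7 ± 5.60 with doxorubicin (16.3 to 27.8; SD, n = 4). No 2 groups overlapped in this ratio. Between the B-type genes, Lmnb1 exceeded Lmnb2 by 2.16 ± 0.277 in vehicle, 1.55 ± 0.0807 with IL-1β and 1.31 ± 0.117 after bleomycin, and with doxorubicin the ratio was 0.953 ± 0.153, from 0.770 to 1.13. Lmnb1 was thus above Lmnb2 in every vehicle, bleomycin and IL-1β library and on either side of it among the doxorubicin libraries.

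**Figure D2:**
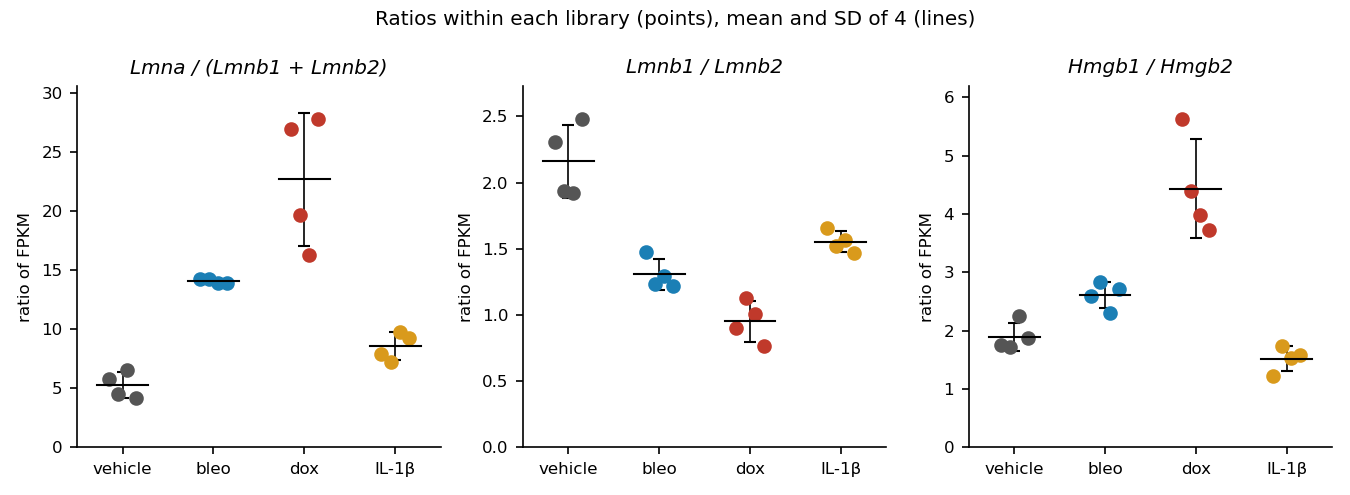
Ratios of FPKM within each library (points; vertical axes from 0) for the 4 groups, with the mean and SD of 4 as lines. From left to right are Lmna over the sum of Lmnb1 and Lmnb2 (vehicle 5.28, doxorubicin 22.7), Lmnb1 over Lmnb2 (2.16 and 0.953) and Hmgb1 over Hmgb2 (1.90 and 4.44).

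Among the membrane proteins that bind the lamina, Tmpo and Lbr fell with both drugs. Tmpo (ENSMUSG00000019961.17, chromosome 10, 91147571 to 91181315, minus strand) encodes the LAP2 proteins, of which some span the inner membrane and LAP2 alpha is soluble. It was at 48.7, 45.1, 44.6 and 43.8 FPKM in vehicle, 21.9, 21.2, 18.6 and 23.8 after bleomycin, 16.7, 18.1, 18.8 and 17.0 with doxorubicin and 31.3, 24.7, 22.7 and 27.0 with IL-1β. Every treated library lay below every vehicle library. On the log2 scale Tmpo fell by 1.06 ± 0.09 after bleomycin (limma adjusted p = 9.73e-08), by 1.32 ± 0.09 with doxorubicin (limma adjusted p = 5.49e-09) and by 0.77 ± 0.09 with IL-1β (limma adjusted p = 2.42e-06). Mean FPKM in vehicle exceeded these groups 2.13-fold, 2.58-fold and 1.72-fold. GENCODE lists 13 transcripts of Tmpo, and FPKM per gene does not show which of them fell.

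Lbr (ENSMUSG00000004880.11, chromosome 1, 181815335 to 181843046, minus strand) encodes the lamin B receptor, which holds heterochromatin at the membrane and is also a sterol reductase. It was at 14.7, 13.8, 12.8 and 13.2 FPKM in vehicle, 7.10, 7.10, 6.45 and 7.39 after bleomycin, 5.15, 4.86, 4.51 and 3.78 with doxorubicin and 13.3, 14.0, 12.1 and 12.9 with IL-1β. The IL-1β and vehicle libraries overlapped, and both drug groups lay below them all. Lbr fell by 0.87 ± 0.08 on the log2 scale after bleomycin (limma adjusted p = 2.22e-07) and by 1.40 ± 0.08 with doxorubicin (limma adjusted p = 8.02e-10). These were 1.94-fold and 2.98-fold in mean FPKM. For IL-1β the difference was -0.06 (95% interval -0.22 to 0.11; limma adjusted p = 0.593). Dnah14 overlaps Lbr on the opposite strand, as Uspl1 does Hmgb1 and AI413582 does Hmga1. Noncoding genes or pseudogenes also overlap Tmpo, Lbr, Emd, Hmgb1, Hmga1 and Hmga2. Whether the counting used strand is not given in the sources used here.

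Emd (ENSMUSG00000001964.14, chromosome X, 74254687 to 74261548, plus strand) encodes emerin, a LEM-domain protein that binds lamins and the chromatin factor BAF. Its level was 37.5, 35.99, 35.2 and 37.95 FPKM in vehicle, 31.9, 29.1, 33.8 and 27.5 after bleomycin, 33.7, 31.6, 31.0 and 32.2 with doxorubicin and 32.2, 36.8, 31.2 and 34.3 with IL-1β. Both drug groups lay below vehicle without overlap, by a smaller margin than for Tmpo and Lbr. Emd fell by 0.26 ± 0.07 after bleomycin (limma adjusted p = 0.00424) and by 0.18 ± 0.07 with doxorubicin (limma adjusted p = 0.0292). The doxorubicin call was lost when doxorubicin replicate 2, 3 or 4 or vehicle replicate 1 or 4 was left out, at adjusted p of 0.0501 to 0.0728. For IL-1β the difference was -0.12 (limma adjusted p = 0.143), and it was called at -0.18 with median-of-ratios scaling (adjusted p = 0.0391) and at -0.23 with quantile normalization (adjusted p = 0.00871).

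**Figure D3:**
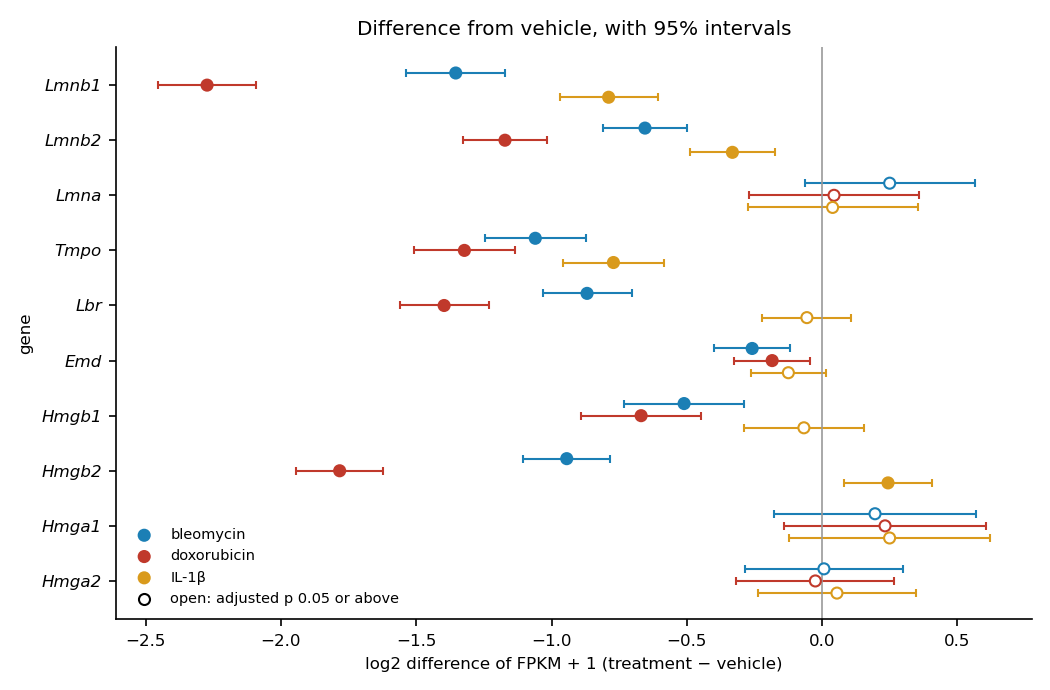
Difference of each treatment from vehicle in log2(FPKM + 1) (horizontal axis) for the 10 genes (vertical axis), with 95% intervals from the limma fit; filled points were called at an adjusted p under 0.05 and open points were not. Lmnb1 with doxorubicin lies farthest left at -2.27, and Hmgb2 lies at -0.94 and -1.78 for the drugs and at 0.24 for IL-1β.

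Of the HMG proteins, the HMG-box genes Hmgb1 and Hmgb2 fell with both drugs. Hmgb2 (ENSMUSG00000054717.7, chromosome 8, 57511907 to 57515999, plus strand) encodes a DNA-bending protein of the nucleus. It was at 35.4, 32.5, 28.5 and 32.0 FPKM in vehicle, 17.9, 16.01, 15.2 and 15.7 after bleomycin, 7.84, 8.12, 8.56 and 9.98 with doxorubicin and 39.4, 38.6, 36.9 and 37.4 with IL-1β. The 4 groups did not overlap, with IL-1β above vehicle and the drugs below it. Hmgb2 fell by 0.94 ± 0.08 on the log2 scale after bleomycin (limma adjusted p = 7.33e-08) and fell by 1.78 ± 0.08 with doxorubicin (limma adjusted p = 5.08e-11), the 10th lowest difference of all genes tested there. With IL-1β it rose by 0.24 ± 0.08 (limma adjusted p = 0.0163), a call lost at 0.13 with quantile normalization (adjusted p = 0.147) and at 0.19 without vehicle replicate 3 (adjusted p = 0.0591).

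Hmgb1 (ENSMUSG00000066551.12, chromosome 5, 149046702 to 149184489, minus strand) encodes a close relative that is also known as an alarmin once it leaves the cell. Its level was 62.1, 55.8, 64.1 and 59.9 FPKM in vehicle, 46.5, 45.3, 35.04 and 42.5 after bleomycin, 44.1, 35.7, 34.1 and 37.2 with doxorubicin and 48.5, 67.5, 56.8 and 59.1 with IL-1β. The drug groups overlapped each other and lay below vehicle, and the IL-1β libraries reached from below to above the vehicle range. Hmgb1 fell by 0.51 ± 0.10 after bleomycin (limma adjusted p = 0.000833) and by 0.67 ± 0.10 with doxorubicin (limma adjusted p = 6.34e-05), and for IL-1β the difference was -0.07 (95% interval -0.29 to 0.16; limma adjusted p = 0.641). The ratio of Hmgb1 to Hmgb2 was 1.90 ± 0.242 in vehicle, 2.61 ± 0.223 after bleomycin, 4.44 ± 0.844 with doxorubicin and 1.52 ± 0.216 with IL-1β (SD, n = 4).

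Near-identical copies could share reads with these genes. The tables held 15 rows of copies, of which 3 reached 1 FPKM in any library and the other 12 stayed at or below 0.409 FPKM. The transcript of the processed copy Hmgb1-ps7 matched that of Hmgb1 at 98.6% of 648 aligned bases, and Hmgb1-ps7 averaged 12.5 ± 0.867 FPKM in vehicle, 7.76 ± 1.04 after bleomycin, 6.27 ± 0.886 with doxorubicin and 11.9 ± 0.763 with IL-1β (SD, n = 4). This copy was called lower by 0.63 ± 0.10 after bleomycin (SE; limma adjusted p = 5.39e-05) and by 0.90 ± 0.10 with doxorubicin (limma adjusted p = 1.07e-06). With IL-1β it was not called (limma adjusted p = 0.63). Hmgb1-ps3, at 97.8% of 641 aligned columns, averaged 1.61 FPKM in vehicle. Hmga1b matched Hmga1 at 99.8% of 1538 columns and averaged 9.16 ± 2.67, 13.5 ± 4.66, 11.0 ± 2.46 and 12.4 ± 1.73 FPKM in vehicle, bleomycin, doxorubicin and IL-1β, with no call in any of the 3 comparisons with vehicle. How the authors assigned reads that fit several places is not given in the sources used here, so the levels of Hmgb1 and Hmga1 are uncertain to that extent.

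Hmga1 and Hmga2 encode AT-hook proteins that bind the minor groove of AT-rich DNA. Hmga1 (ENSMUSG00000046711.16, chromosome 17, 27556497 to 27563674, plus strand) was at 21.6, 23.4, 18.2 and 18.8 FPKM in vehicle, 22.1, 17.6, 26.9 and 28.8 after bleomycin, 23.8, 29.5, 23.1 and 20.7 with doxorubicin and 16.6, 30.0, 24.0 and 29.5 with IL-1β. Hmga2 (ENSMUSG00000056758.14, chromosome 10, 120361275 to 120476469, minus strand) was at 26.1, 28.3, 17.1 and 20.8 FPKM in vehicle, 25.0, 22.8, 20.8 and 22.7 after bleomycin, 24.1, 26.3, 20.9 and 18.6 with doxorubicin and 25.2, 26.9, 22.2 and 20.6 with IL-1β. For both genes all 4 groups overlapped.

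Neither HMGA gene passed the test in any comparison. The log2 difference of Hmga1 from vehicle was 0.20 (95% interval -0.18 to 0.57) for bleomycin, 0.23 (-0.14 to 0.61) for doxorubicin and 0.25 (-0.12 to 0.62) for IL-1β, with limma adjusted p of 0.387, 0.294 and 0.276. Without IL-1β replicate 1, the lowest of its group, the difference for IL-1β was 0.43 and was called (limma adjusted p = 0.037). For Hmga2 the differences were 0.01 (-0.28 to 0.30), -0.02 (-0.32 to 0.27) and 0.05 (-0.24 to 0.35), with limma adjusted p of 0.972, 0.899 and 0.777. With scaling between libraries the first of these turned to -0.08 (median-of-ratios) and -0.04 (quantile), the last to -0.006 (quantile), and neither was called.

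The bases before the start sites of some of the genes that fell are shown, with those of Hmga2, which did not pass the test. They were searched for 2 short motifs known from genes of the cell cycle, which some of the windows shown lack. The cell cycle homology region (CHR) was searched as TTTGAA and the CCAAT box as CCAAT, each on both strands in the 250 bases before each RefSeq start site (RefSeq sequences on GRCm38.p6). Of the 10 genes, 9 were searched, with 14 windows in all. CHR letters stood in 3 of the 14 windows (of Hmgb2, Lbr and Tmpo) and CCAAT letters in 6 (of those genes, Emd, Hmgb1 and Lmna), where 16% and 33.9% of all 32851 windows held them. No excess over those shares was tested or shown. The E2F letters TTTCGCGC or TTTGGCGC were in 0 of the 9 genes and in 0.655% of all windows. Each line below runs 5′ to 3′ on the strand of the gene up to the base before the start site, with CHR and CCAAT letters in capitals (TTCAAA and ATTGG on the minus strand), and no CHR or CCAAT match overlapped another. The windows are Hmgb2 at chr8:57511593-57511842 (plus strand), Lbr at chr1:181842402-181842651 (minus), Tmpo window 1 at chr10:91171620-91171869 (minus), Lmnb2 window 1 at chr10:80918246-80918495 (minus) and Hmga2 at chr10:120476470-120476719 (minus).
Hmgb2: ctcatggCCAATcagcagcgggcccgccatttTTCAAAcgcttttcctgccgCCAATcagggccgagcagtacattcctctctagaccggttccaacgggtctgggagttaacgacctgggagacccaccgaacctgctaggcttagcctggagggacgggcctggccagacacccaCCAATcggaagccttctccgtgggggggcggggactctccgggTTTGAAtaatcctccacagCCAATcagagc
Lbr: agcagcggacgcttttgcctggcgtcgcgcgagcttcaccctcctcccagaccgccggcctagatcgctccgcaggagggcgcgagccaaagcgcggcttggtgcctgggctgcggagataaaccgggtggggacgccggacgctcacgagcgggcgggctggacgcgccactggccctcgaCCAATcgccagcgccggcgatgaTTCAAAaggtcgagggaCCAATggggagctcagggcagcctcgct
Tmpo: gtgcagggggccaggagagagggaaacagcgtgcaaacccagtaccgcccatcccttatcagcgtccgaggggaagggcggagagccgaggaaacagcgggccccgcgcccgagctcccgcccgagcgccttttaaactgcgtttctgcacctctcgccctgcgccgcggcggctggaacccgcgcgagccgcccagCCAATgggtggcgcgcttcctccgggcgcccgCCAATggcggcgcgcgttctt
Lmnb2: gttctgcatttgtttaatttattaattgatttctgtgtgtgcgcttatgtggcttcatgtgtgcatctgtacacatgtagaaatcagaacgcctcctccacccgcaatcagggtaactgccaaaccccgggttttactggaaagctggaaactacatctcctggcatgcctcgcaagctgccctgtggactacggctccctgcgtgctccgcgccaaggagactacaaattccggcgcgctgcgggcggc
Hmga2: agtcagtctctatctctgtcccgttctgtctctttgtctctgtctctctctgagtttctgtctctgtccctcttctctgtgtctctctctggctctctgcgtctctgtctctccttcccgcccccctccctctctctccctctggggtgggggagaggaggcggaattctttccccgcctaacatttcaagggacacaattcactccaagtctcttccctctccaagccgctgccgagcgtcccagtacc

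In the Hmgb2 window, CHR letters lie 30 to 25 and 218 to 213 bases before the start, and CCAAT letters occur 4 times. In Lbr, CHR letters lie 45 to 40 bases before the start, between CCAAT letters at 68 to 64 and at 28 to 24. In Tmpo the window shown has CCAAT letters at 53 to 49 and at 21 to 17, and CHR letters lie 28 to 23 bases before the start of another window of the gene. Lmnb2, which fell with both drugs, and Hmga2 showed neither motif in these windows. Emd had CCAAT letters 1 time and Hmgb1 3 times in 1 window. Lmnb1 was not among the genes searched, so the motif counts say nothing about it. A match of letters describes the sequence and does not show that a factor binds there.

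The treated groups were then compared with each other. Doxorubicin libraries were lower than bleomycin libraries for 4 of the 10 genes (Lmnb1, Hmgb2, Lbr and Lmnb2) and higher for 0, where 5.85% of all genes tested were called lower and 4.18% higher. Lower calls were 58.3% of all calls there, 39.6% after median-of-ratios scaling and 46.6% after quantile normalization. Lmnb1 was 2.11-fold lower in mean FPKM (log2 difference -0.92 ± 0.09, limma adjusted p = 8.07e-06), the 13th lowest difference of all genes. Hmgb2 was 1.88-fold lower (-0.84 ± 0.08, limma adjusted p = 7.67e-06), the 22nd lowest. Lbr differed by -0.53 ± 0.08 (limma adjusted p = 0.000421) and Lmnb2 by -0.52 ± 0.07 (limma adjusted p = 0.000325). For these 4 genes the groups did not overlap. Tmpo differed by -0.26 (95% interval -0.45 to -0.08) and was not called (limma adjusted p = 0.071), though it was without bleomycin replicate 3 (-0.32, limma adjusted p = 0.0386). For Hmgb1 the difference was -0.16 (-0.38 to 0.06), for Emd 0.07 (-0.07 to 0.21), for Lmna -0.21 (-0.52 to 0.11), for Hmga1 0.04 (-0.34 to 0.41) and for Hmga2 -0.03 (-0.32 to 0.26).

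Against IL-1β, the mean of the drug groups was lower for 6 genes and higher for 0, where 29.5% of all genes tested were called lower and 28.5% higher. Hmgb2 showed the largest difference of the 10, -1.61 ± 0.07 (limma adjusted p = 6.53e-12), followed by Lbr at -1.08 ± 0.07 (limma adjusted p = 1.12e-09) and Lmnb1 at -1.02 ± 0.07 (limma adjusted p = 6.77e-09). Lmnb2 differed by -0.58, Hmgb1 by -0.52 and Tmpo by -0.42, all called. For Tmpo the bleomycin and IL-1β libraries overlapped, and the doxorubicin libraries lay below those of IL-1β without overlap. Emd was at -0.10 (limma adjusted p = 0.159), Lmna at 0.11, Hmga1 at -0.04 and Hmga2 at -0.06, none called. IL-1β was given for 24 h, bleomycin for 24 h followed by 5 days in fresh medium, and doxorubicin for 5 days, so agent and time in culture after its start cannot be told apart.

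**Figure D4:**
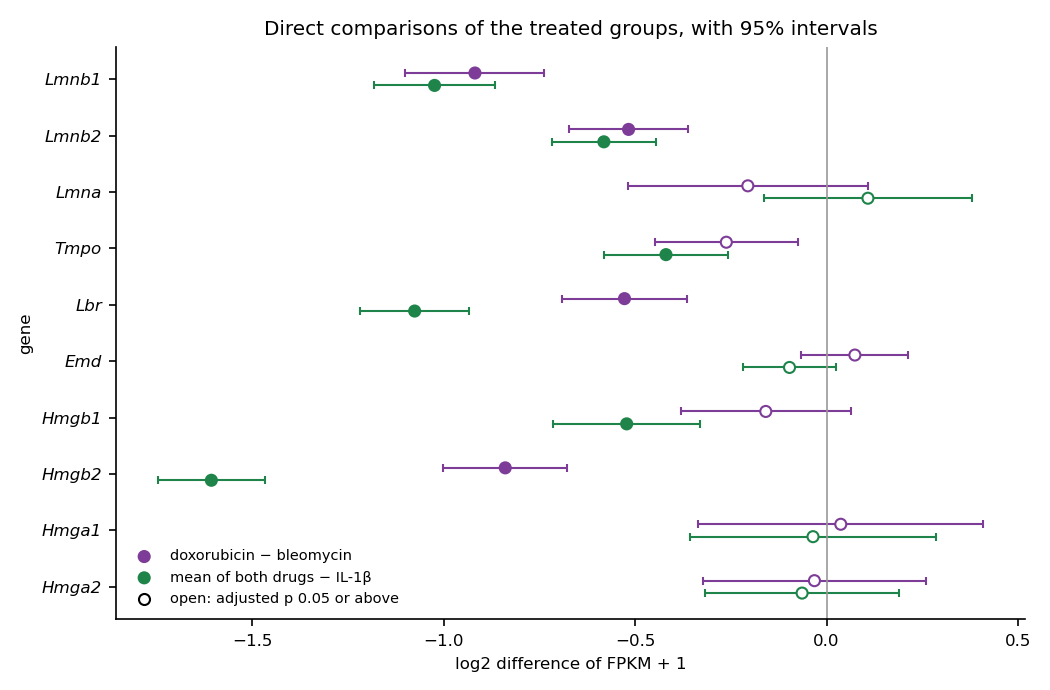
Differences between treated groups in log2(FPKM + 1) (horizontal axis) for the 10 genes (vertical axis) with 95% intervals, filled where called at an adjusted p under 0.05. Doxorubicin lay below bleomycin for Lmnb1 (-0.92), Hmgb2 (-0.84), Lbr (-0.53) and Lmnb2 (-0.52), and the mean of both drugs lay below IL-1β most for Hmgb2 (-1.61).

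Levels compared per gene length also changed their order. In vehicle, Lmna (175 FPKM on average) stood above Hmgb1 (60.5) and Tmpo (45.6) without overlap, then came Emd (36.7) and Hmgb2 (32.1), whose libraries overlapped. Hmga2 (23.1), Lmnb1 (22.7) and Hmga1 (20.5) overlapped their neighbours, and Lbr (13.6) and Lmnb2 (10.6) were the lowest, with no overlap between them. With doxorubicin, Hmga1 (24.3) and Hmga2 (22.5) stood above Tmpo (17.6) and Hmgb2 (8.62) on average, though Hmga2 and Tmpo libraries overlapped. The lowest 3 there were Lbr (4.57), Lmnb2 (4.13) and Lmnb1 (3.91), with overlap between neighbours. With IL-1β, Hmgb2 (38.1) stood above Emd (33.6) and Tmpo (26.4).

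Patterns over the 16 libraries are given as descriptions, since the libraries fall into 4 groups and share them. The 3 genes most like Lmnb1 by Pearson's r of log2(FPKM + 1) were Ccna2 (cyclin A2), Nuf2 (a kinetochore protein) and Bub1b (a mitotic checkpoint kinase), each at 0.98. After subtracting the group means these r were 0.26, 0.57 and 0.37. For Lmnb2 they were Uhrf1, Kif4 and Ccna2, for Lbr Kif22, Cks1b and Mcm5, and for Hmgb2 H2az1, Dut and Mcm3. For Tmpo they were Gemin5, Tra2b and Epb41, for Hmgb1 Dpysl2, Lancl2 and Hmgb1-ps7, and for Emd Mapk6, Cdk6 and Epb41l4a. The best r was lower for Lmna (0.80, with Eid2), Hmga1 (0.83, with 6530402F18Rik) and Hmga2 (0.83, with Gm14410). For these pairs it was 0.82, 0.84 and 0.88 after subtracting the group means. Between Lmnb1 and Lmnb2 r was 0.98 over all libraries and 0.12 after subtracting the group means, and between Lbr and Hmgb2 it was 0.97 and -0.16.

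Genes around the lamina were counted in lists chosen with earlier results of these data known, and counts are of tested genes called by limma, to be read beside the shares of all genes given above. Genes named only to account for a small count, outside the rule for named genes, were chosen after their values were seen. Of 15 inner nuclear membrane and lamina partners, 2 were lower and 3 higher after bleomycin, 5 lower and 4 higher with doxorubicin, and 2 lower and 3 higher with IL-1β. Nrm, which encodes nurim of the inner membrane, averaged 9.05 ± 0.474 FPKM in vehicle, 6.05 ± 0.50 after bleomycin, 4.50 ± 0.458 with doxorubicin and 3.99 ± 0.526 with IL-1β (SD, n = 4), and fell in all 3. Banf1, which encodes the emerin-binding factor BAF, fell from 65.2 ± 9.76 FPKM to 43.4 ± 4.14 after bleomycin and 38.2 ± 5.44 with doxorubicin, and averaged 66.4 ± 5.88 with IL-1β. Plpp7 rose with both drugs, from 0.969 FPKM to 2.32 and 2.19, and Tmem38a rose with doxorubicin and IL-1β. The other calls were few: Tmem43 and Tor1a rose after bleomycin, Tmem201, Sun1 and Lemd3 fell and Tmem43 and Ankle2 rose with doxorubicin, and with IL-1β Sun1 fell and Lemd2 and Tor1a rose.

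Linkers of the outer membrane to the cytoskeleton numbered 7, with 1 lower (Syne4, which encodes nesprin-4) and 1 higher (Plec, which encodes plectin) with each drug. With IL-1β 3 were lower (Syne4, Syne1 and Plec) and 1 higher (Tmem120a). Of 7 genes that process prelamin or cut lamins, 1 was lower (Fntb) and 4 higher (Narf, Fnta, Icmt and Casp6) after bleomycin. With doxorubicin 3 were lower (Rce1, Fntb and Zmpste24) and 3 higher (Narf, Icmt and Casp6), and with IL-1β 2 were lower (Fntb and Zmpste24) and 1 higher (Casp6). Narf, which encodes a partner of prelamin A, rose by 0.64 ± 0.07 on the log2 scale after bleomycin (limma adjusted p = 1.1e-06) and by 0.29 ± 0.07 with doxorubicin (limma adjusted p = 0.00185). Icmt, the methyltransferase that acts on the farnesylated end of B-type lamins and prelamin A, rose by 0.38 ± 0.05 and 0.28 ± 0.05 (limma adjusted p = 2.47e-05 and 0.000398).

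Of 27 nuclear pore genes tested, 18 were lower after bleomycin, 19 with doxorubicin and 5 with IL-1β (Nup205, Nup107, Ndc1, Nup160 and Nup98), and Aaas was the only one higher, with each drug. The median of the list was -0.33, -0.36 and -0.07 on the log2 scale, beside 0.06, 0.02 and 0.03 over all genes tested. Nup107, of the pore scaffold, averaged 26.9 ± 2.99 FPKM in vehicle, 15.3 ± 0.821 after bleomycin, 12.9 ± 1.88 with doxorubicin and 19.6 ± 2.54 with IL-1β (SD, n = 4). Nup37 fell by 0.74 ± 0.09 and 0.88 ± 0.09 with the drugs, and Ndc1, which anchors the pore in the membrane, by 0.60 ± 0.07 and 0.82 ± 0.07.

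Of 14 other HMG-box and HMGN genes tested, 4 were lower after bleomycin, 4 lower and 0 higher with doxorubicin, and 3 lower and 2 higher with IL-1β. Hmgb3, the relative of Hmgb1 and Hmgb2, averaged 8.43 ± 1.12 FPKM in vehicle, 5.02 ± 0.0752 after bleomycin, 3.67 ± 0.157 with doxorubicin and 9.28 ± 0.492 with IL-1β (SD, n = 4), and fell with both drugs. Hmgn2, which binds nucleosomes, fell by 0.45 ± 0.13 after bleomycin (limma adjusted p = 0.00944) and by 1.16 ± 0.13 with doxorubicin (limma adjusted p = 2.02e-06). Ssrp1, of the histone chaperone FACT, fell with both drugs and Hmgn1 with doxorubicin. Of the others, Ubtf fell after bleomycin, and with IL-1β Hmgxb4, Bbx and Tox4 fell and Hmgn5 and Hmg20b rose.

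Of 20 heterochromatin genes, 11 were lower and 4 higher after bleomycin (H1f0, Ehmt2, Macroh2a1 and Ubn1), 11 lower and 0 higher with doxorubicin, and 9 lower and 0 higher with IL-1β. Uhrf1, which brings the maintenance methyltransferase to new DNA, averaged 17.1 ± 1.34 FPKM in vehicle, 8.04 ± 0.395 after bleomycin, 5.12 ± 0.339 with doxorubicin and 13.3 ± 0.915 with IL-1β (SD, n = 4). Dnmt1, that methyltransferase, fell by 0.58 ± 0.07 and 1.04 ± 0.07 with the drugs. Suv39h2 and Ezh2, which methylate histone H3, fell by 0.88 ± 0.16 and 0.45 ± 0.08 after bleomycin and by 1.00 ± 0.16 and 0.81 ± 0.08 with doxorubicin. Among 6 tested genes of the Lin28, let-7 and IMP regulation of Hmga2, 3 were lower after bleomycin, 4 with doxorubicin and 2 with IL-1β (Igf2bp1 and Dicer1), and 0 were higher. Igf2bp1, an RNA-binding protein, averaged 2.71 ± 0.707 FPKM in vehicle, 1.06 ± 0.209 after bleomycin and 1.02 ± 0.158 with doxorubicin. Igf2bp3 and Dicer1 fell with both drugs and Igf2bp2 with doxorubicin.

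For HMGB1 outside the nucleus, 7 genes of receptors and partners were tested, with 2 lower and 1 higher after bleomycin, 3 lower and 2 higher with doxorubicin, and 3 lower and 1 higher with IL-1β. Thbd (thrombomodulin, which binds HMGB1) rose by 1.06 ± 0.08 after bleomycin and by 1.32 ± 0.08 with doxorubicin and fell by 0.39 ± 0.08 with IL-1β. Tlr2, a receptor of innate immunity, rose by 2.72 ± 0.10 with IL-1β, from 4.92 ± 0.234 to 38.03 ± 2.79 FPKM, and by 0.31 ± 0.10 with doxorubicin. Ncl and Xpo1, which encode nucleolin and the export receptor exportin 1, fell with both drugs. Cd24a fell with doxorubicin and with IL-1β, and Cxcl12 fell with IL-1β. Ager, Tlr9 and Cxcr4 did not pass the filter.

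Genes of the cell cycle moved in the same comparisons. Of 20 S-phase genes, 17 were lower and 2 higher after bleomycin (E2f1 and Ccne1), 18 lower and 0 higher with doxorubicin, and 7 lower and 1 higher with IL-1β (Tyms). Of 24 genes of G2 and mitosis, 23 were lower after bleomycin, 24 with doxorubicin and 17 with IL-1β, and 0 were higher. The medians of the mitotic list were -0.84, -1.40 and -0.34, and those of the 10 lamina and HMG genes -0.58, -0.92 and -0.06. Ccna2 averaged 32.4 ± 3.04 FPKM in vehicle, 15.4 ± 0.564 after bleomycin, 7.41 ± 0.677 with doxorubicin and 21.3 ± 1.79 with IL-1β, and the helicase gene Mcm5 28.3 ± 2.64, 13.2 ± 1.00, 8.58 ± 0.928 and 24.4 ± 1.17 (SD, n = 4). The part of the cell cycle genes in the differences of Lmnb1, Lmnb2, Lbr, Tmpo and Hmgb2 was not tested.

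In the list of the DREAM, RB and p53 arm, 6 of 14 were lower and 6 higher after bleomycin, 6 lower and 4 higher with doxorubicin (Cdkn1a, Rbl2, Rb1 and Cdkn2b), and 3 lower (Mybl2, Rbl1 and Tfdp1) and 5 higher (Cdkn2b, Cdkn2a, Cdkn1a, Rb1 and Trp53) with IL-1β. Cdkn1a rose by 1.30 ± 0.05 after bleomycin, 1.42 ± 0.05 with doxorubicin and 0.46 ± 0.05 with IL-1β. Cdkn2a, which encodes p16 and p19, averaged 6.13 ± 0.527 FPKM in vehicle, 12.9 ± 0.924 after bleomycin, 6.35 ± 1.02 with doxorubicin and 9.62 ± 0.585 with IL-1β (SD, n = 4). With doxorubicin, Cdkn2a differed from vehicle by 0.04 ± 0.09 on the log2 scale (SE) and was not called (limma adjusted p = 0.775). Whether its level goes with those of Lmnb1 and Hmgb2 was not tested. Mybl2, of the activating form of the complex, fell with all 3 treatments and the pocket protein gene Rbl2 rose with both drugs.

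**Figure D5:**
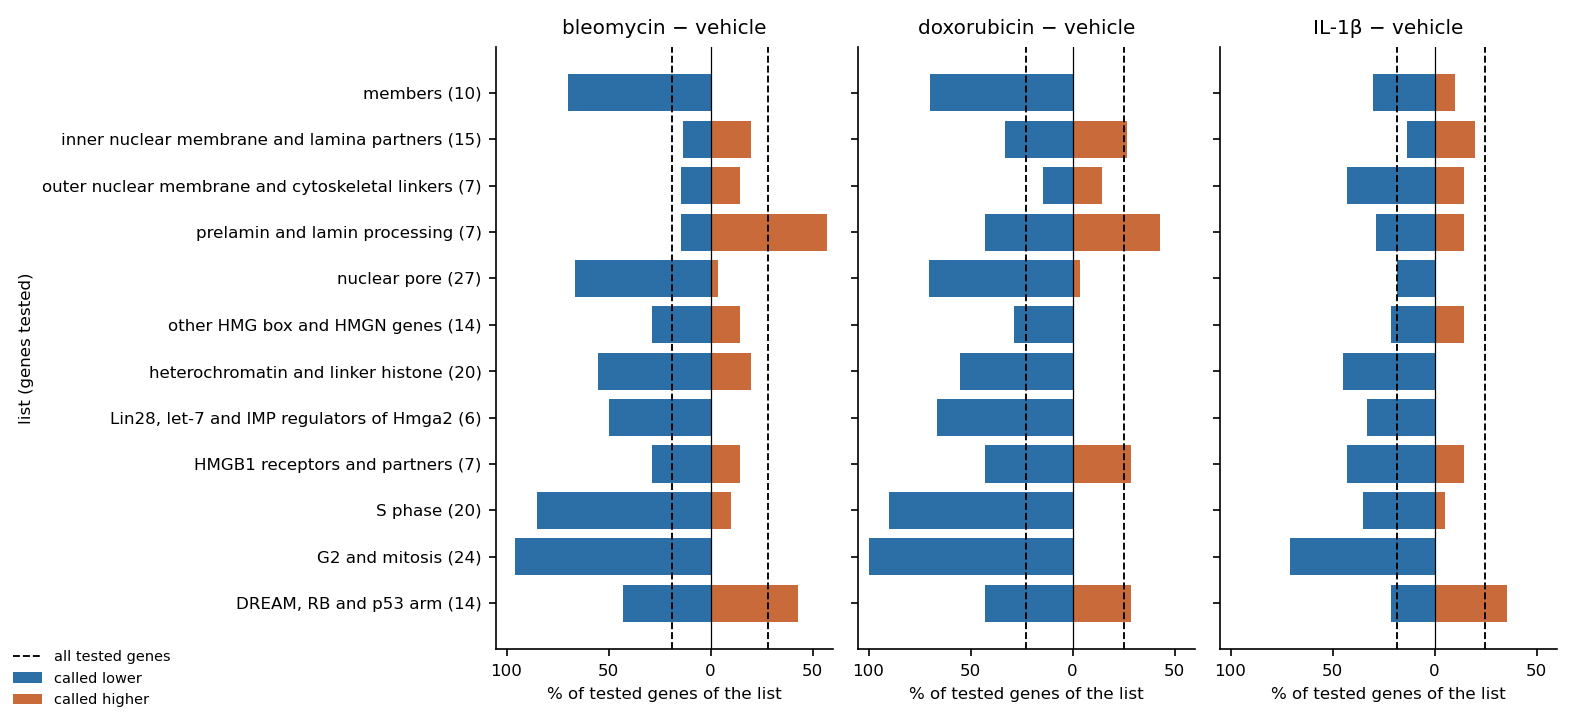
Share of the tested genes of each list (vertical axis, number tested in brackets) called lower (blue, to the left) or higher (orange, to the right) against vehicle, in percent (horizontal axis), with dashed lines at the share over all genes tested. The 10 genes described here are the bars named members, with 70% called lower for each drug against 19% and 22.8% of all genes.

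Markers of other cell types also differed between groups. The summed level of 10 macrophage markers was 9.14 to 11.1 FPKM in vehicle, 16.3 to 17.9 after bleomycin, 19.3 to 24.1 with doxorubicin and 29.1 to 34.8 with IL-1β, with 6 of the 10 (7 with IL-1β) under 1 FPKM in all 4 libraries of a group. Ptprc, the pan-leukocyte marker, did not exceed 0.0318 FPKM, Itgam was at 0 in vehicle, Tyrobp at 0 after bleomycin and Adgre1 and C1qa at 0 with IL-1β. The 8 adipocyte markers summed to 35.7 to 41.3 FPKM in vehicle, 73.0 to 84.0 after bleomycin, 154 to 201 with doxorubicin and 367 to 405 with IL-1β, and Lep was at 0 in all groups but doxorubicin. The list split: all 6 tested adipocyte markers were called higher with each drug, and 3 of them (Fabp4, Lpl and Pparg) with IL-1β, where Fabp4 reached 383 FPKM in the highest library. The other 3 (Adipoq, Cfd and Plin1) stayed under 1 FPKM without a drug, so only the drug groups brought them past the filter. Cidec and Lep did not pass it. A marker this low in vehicle could be tested only if a treatment raised it, so the filter favored higher calls in this list. Adipoq did not exceed 0.284 FPKM in vehicle, 5.52 after bleomycin, 16.3 with doxorubicin and 0.0834 with IL-1β, and Cfd was at 0 with IL-1β. The 8 fibroblast markers summed to 1763 to 2014, 2263 to 2388, 2416 to 2675 and 726 to 875 FPKM, and the 15 chondrocyte markers to 12430 to 16460, 9144 to 12120, 9233 to 12100 and 5795 to 6187. The endothelial markers summed to 2.57 to 6.52 FPKM over all groups, with 6 of 7 under 1 FPKM, the muscle markers to 3.52 to 11.7 and the osteoblast markers to 22.9 to 37.3. Sums follow the most abundant genes and hide splits within these lists too. In the highest library of vehicle, bleomycin, doxorubicin and IL-1β, the chondrocyte marker Prg4 was at 23.7, 60.7, 106 and 43.7 FPKM. Acan was at 722, 343.5, 360 and 154 there. Of the osteoblast markers, Bglap2 was at 0.619, 6.94, 6.72 and 12.2 and Alpl at 11.6, 6.43, 6.67 and 8.12. The part of all these markers in the differences of the lamina and HMG genes was not tested.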

How the data were processed

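The authors deposited 1 table of FPKM values per library. Per the submitters' processing notes, Trimmomatic trimmed the reads and STAR aligned them to GRCm38. Versions, the counting tool and its annotation are not given in the sources used here. Libraries were poly(A)-selected and stranded, from 1 µg of total RNA, per the labels' protocols. Of the low values, 64.7% to 68.3% were whole fragments within 0.1, so counts were not recovered and no count test was run.

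The analysis used log2(FPKM + 1) without scaling between libraries. A gene entered the fit if 4 or more of the 16 libraries reached 1 FPKM. The model, limma 3.58.1 run in R 4.3.3, covered all 4 groups, with a spread per gene shared by the groups, a mean-variance trend, Benjamini-Hochberg adjustment within each of 5 comparisons and a threshold of 0.05. Adding 1 FPKM understates the change of genes of low level. Identifiers were matched to GENCODE M21 (54312 with the same version). The members and lists were chosen with earlier results of these data known. From each list, up to 4 called genes with the largest difference in a drug against vehicle are named, and for each member the 3 most similar genes. Alternatives were 2 pseudocounts, 2 filters, 2 scalings, a fit of only the groups compared, no trend, a replicate block and leaving out each library. The genes of the other HMG list that were higher after bleomycin are not reported here.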

Additional observations from a re-analysis of the deposited data

How the results depend on the processing

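The number of genes called was the same with pseudocounts of 0.1 and 0.01, no filter, a filter at 5 FPKM, quantile normalization, a fit of only the groups compared, no trend and the replicate block, and with median-of-ratios scaling it was 5 in place of 4 for IL-1β. Leaving out 1 library at a time gave 7 after bleomycin, 6 to 7 with doxorubicin, 3 to 5 with IL-1β, 4 to 5 for doxorubicin against bleomycin and 6 for the drugs against IL-1β. The differences whose sign turned were of Lmna, Hmga1, Hmga2 and Hmgb1 where they were not called. With median-of-ratios scaling Hmga2 was at -0.0757 after bleomycin and at 0.0130 for doxorubicin against bleomycin, and Lmna at -0.0173 with IL-1β. With quantile normalization Hmga2 was at -0.0404 after bleomycin, -0.00613 with IL-1β and 0.00971 for doxorubicin against bleomycin, Lmna at -0.0569 with IL-1β and Hmga1 at 0.0108 for the drugs against IL-1β. The cause was not tested.

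With single libraries left out, Hmga2 ranged from -0.121 to 0.109 after bleomycin, -0.153 to 0.0771 with doxorubicin, -0.0733 to 0.157 with IL-1β and -0.108 to 0.0514 for doxorubicin against bleomycin. Lmna ranged from -0.0524 to 0.145 with doxorubicin, -0.0576 to 0.157 with IL-1β and -0.00976 to 0.179 for the drugs against IL-1β, Hmga1 from -0.0939 to 0.132 for doxorubicin against bleomycin and -0.213 to 0.0613 for the drugs against IL-1β, and Hmgb1 from -0.143 to 0.0138 with IL-1β.

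The replicate numbers of the labels are shared by the groups, and their deviations from the group means correlated at -0.02 to 0.21 between same-numbered libraries (24 pairs, 6 over 0.1) and at -0.19 to 0.099 between others (72 pairs). For 13 of the 16 libraries, the mean correlation with libraries of the other groups was highest for those of their own number. Same-numbered libraries thus tended to deviate together, which is a hint from the data and not from the design. The labels do not say what a number marks and not every pair was over 0.1, the condition set for pairing, so the block was kept as an alternative. With the number as a replicate block all calls were as without it, 28 over the 5 comparisons (7, 7, 4, 4 and 6). The estimated depths, 15.7 to 21.8 M fragments (M, mega), set the counting error, and the number of libraries, 4 a group, set the precision of each difference.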
